A study of Homo sapiens with 6 samples.

Results

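Mitochondrial ribosomal protein genes are the nuclear genes whose products, with ribosomal RNAs made inside the organelle, build the ribosome of the mitochondrion. They were chosen by name alone, as the protein-coding genes whose symbol starts with MRPL (large subunit) or MRPS (small subunit) followed by a digit. This gave 78 genes of the 58735 listed in every library, 49 MRPL and 29 MRPS. A further 86 genes with such symbols were not protein-coding and were left aside. The rule used no measured value, though the group itself was picked with earlier results of these data known.

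The RNA came from SK-N-AS, a widely used human neuroblastoma cell line, collected per the labels 72 h after transfection. Cells received either a control siRNA with no target (NC) or an siRNA directed at Prp19 (siPrp19), with 3 libraries each. Prp19, encoded by *PRPF19*, is a core factor of the spliceosome. All cells came from 1 line, and siRNA lowers a transcript without deleting its gene. The name of the value column and the label of the library contradicted each other for 2 of the 6 libraries: column NCb is recorded under a siPrp19 label and column siPrp19b under an NC label. Libraries are called here by their column, a to c in each group, and were compared in 3 ways: by column name (3 against 3, used unless stated otherwise), in the 4 libraries whose column and label agree (NCa and NCc against siPrp19a and siPrp19c), and as labelled.

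*PRPF19* itself was at 83.0, 83.1 and 93.0 FPKM (sequenced fragments divided by exon length and by library size) in columns NCa, NCb and NCc. In columns siPrp19a, siPrp19b and siPrp19c it was at 19.6, 19.1 and 18.5 FPKM. The column groups did not overlap, whereas each labelled group held both high and low libraries. The log2 fold change was -2.12 ± 0.07 (standard error, limma, adjusted p = 0.000215) by column name and -0.74 ± 0.73 (limma, adjusted p = 1.00) as labelled. The NCb and siPrp19b libraries went against their labels for the targeted gene.

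The libraries held between 14898629 and 19992527 reads assigned to genes, recovered from the FPKM values. Reads of the mitochondrial chromosome made up 8.29% of the siPrp19a library and between 5.15% and 5.48% of the others. The adrenergic marker of neuroblastoma *HAND2* (117 to 170 FPKM) was present, and so were the mesenchymal markers *VIM* (99.4 to 162 FPKM) and *YAP1* (7.65 to 20.9 FPKM). Tyrosine hydroxylase, *TH*, on the adrenergic side and *NOTCH2* on the mesenchymal side were below 1 FPKM in every library. Of 5 markers of other cell types, *EPCAM*, *PECAM1*, *CDH5* and *ALB* were below 1 FPKM throughout, while the leukocyte gene *PTPRC* was at 29.8, 30.7 and 24.9 FPKM in the NC columns and at 20.4, 16.9 and 17.0 FPKM in the siPrp19 columns. The part of this marker in the results below was not tested.

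Mitochondrial ribosomes translate the few proteins encoded in mitochondrial DNA, all of them parts of the respiratory chain and ATP synthase. Their own proteins are encoded in the nucleus, made in the cytosol and imported. Some have a counterpart in bacterial ribosomes, while others, such as MRPL44 and MRPS34, are found only in mitochondria. Inherited defects in several of these genes cause mitochondrial disease.

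Some short sequence motifs, not used in the choice by name, were more frequent in promoters of these genes than of tested genes. None of the motifs searched was in most of the promoters. A RefSeq window around the start of transcription, on build GRCh38.p14, was found for 69 of the 78 genes. Each window held 300 bases, 250 before and 50 from the start, and the first listed start was taken for a gene with several. The letters AAGATGGCG or their reverse complement, part of the site known for the factor YY1, were in 13 of the 69 windows (18.8%), against 1.85% of all 27305 windows and 4.26% of those of 9053 protein-coding genes tested here. The letters CCGGAAG or their reverse complement, the core site of ETS factors, were in 29 windows (42.0%), against 10.7% of all and 20.7% of tested genes. The letters GCGCANGCG of the factor NRF1 were in 18.8% of the windows, against 8.05% of all and 15.9% of tested genes. For GGGGCGGGG of SP1 the shares were 24.6%, 16.0% and 28.5%. The TATA letters TATAAA were in 2.90% of the windows, against 5.36% of tested genes. Both strands were searched, each motif was counted on its own whether or not it overlapped another, and a match describes the letters only. The following 30-base stretches of 10 genes are printed because they show the motif that stood furthest above all windows by ratio, in capitals and 5′ to 3′ on the strand of the gene, at its place just after the start of transcription.
MRPL22 at chr5:154941093-154941122 on the plus strand: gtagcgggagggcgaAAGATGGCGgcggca
MRPL38 at chr17:75904859-75904888 on the minus strand: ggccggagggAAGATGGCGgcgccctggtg
MRPL42 at chr12:93467512-93467541 on the plus strand: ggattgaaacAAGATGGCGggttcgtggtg
MRPL46 at chr15:88467361-88467390 on the minus strand: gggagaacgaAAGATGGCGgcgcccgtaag
MRPL50 at chr9:101398576-101398605 on the minus strand: gatctcatcgAAGATGGCGgcgcgatctgt
MRPS10 at chr6:42217833-42217862 on the minus strand: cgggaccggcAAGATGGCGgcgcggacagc
MRPS18A at chr6:43687763-43687792 on the minus strand: taggtttttgAAGATGGCGgccctcaaggc
MRPS18B at chr6:30617853-30617882 on the plus strand: ggcgtacgtcAAGATGGCGgcgtctgtatt
MRPS24 at chr7:43869479-43869508 on the minus strand: cgcttggcccAAGATGGCGgcctccgtgtg
MRPS30 at chr5:44808950-44808979 on the plus strand: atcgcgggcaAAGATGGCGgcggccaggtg

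In these 10 genes the match began between 6 and 35 bases into the transcript. In *MRPL32*, *MRPL36* and *MRPL52* the matches lay before the start. Except for *MRPS24*, which was below the filter described next, these genes were tested between siPrp19 and NC columns. None passed, beside 7.94% of all genes, and with so few genes this cannot be set apart from that share. Their log2 fold changes lay between -0.33 and 0.11.

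The levels of the 78 genes spanned a wide range. Of them, 76 had a mean of at least 1 FPKM over the 6 libraries and were tested, 48 MRPL and 28 MRPS. Their median was 20.7 FPKM, against 6.27 FPKM over all 13718 genes tested. FPKM values are scaled to gene length, here that of all annotated exons, so a comparison between genes also depends on the annotation. The highest was *MRPS34*, a mitochondria-specific protein of the small subunit, at a mean of 112 FPKM, followed in the large subunit by *MRPL51*, also mitochondria-specific, at 84.6 FPKM. The lowest tested in each subunit were *MRPL46* at 1.75 FPKM and *MRPS17* at 3.08 FPKM. Of their exonic bases, 11.3% and 27.0% were shared on the same strand with another gene, and the part of this was not tested. Within each library, the summed FPKM of MRPL genes was between 1.73 and 1.84 times that of MRPS genes. The sums run over 49 and 29 genes, so this ratio reflects the number of genes as well as their levels.

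*MRPL23* and *MRPS24* were below the filter. *MRPL23*, a core protein near the exit of the nascent chain, had 3 reads in all 6 libraries together, of 100298960 assigned reads. It lies on chr11:1947278-1984522 (GRCh38), and none of the 13 other genes within 100000 bases had a mean of 1 FPKM or more. The most strongly expressed of these was *LSP1* at 0.676 FPKM. *MRPS24*, a small subunit protein at the mRNA entry side, was between 0.388 and 0.653 FPKM, and 23.2% of its exonic bases were shared on the same strand with the readthrough gene *URGCP-MRPS24*. Reads that fall on shared bases can be lost to a gene when counted, and the part of this in the low level was not tested.

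Knockdown of Prp19 was compared with the control to ask which genes changed with it. By column name, *MRPL44* and *MRPL30* fell in siPrp19 columns, and no member of either subunit rose. These were 2 of 48 MRPL genes and 0 of 28 MRPS genes at an adjusted p under 0.05 (limma on log2(FPKM + 1)), or 2.63% of the 76. Over all genes tested, 7.94% passed in either direction and 5.37% passed as lower in siPrp19. With only 2 calls, the share among the members cannot be set apart from this background. At an unadjusted p under 0.05 there were 8 MRPL and 0 MRPS genes, against 23.6% of all genes. With voom on recovered reads, the same numbers passed, 2 MRPL and 0 MRPS, against 9.94% of all genes. Counts in bulk RNA cannot tell apart fewer cells with a transcript and less of it per cell.

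*MRPL44*, a large subunit protein with a fold related to ribonuclease III, was at 21.0, 20.5 and 24.6 FPKM in columns NCa, NCb and NCc. It was at 15.4, 15.4 and 14.9 FPKM in columns siPrp19a, siPrp19b and siPrp19c. Every siPrp19 column was lower than every NC column, and the siPrp19 values lay closer together (15.2 ± 0.28 SD, n = 3) than the NC values (22.0 ± 2.2 SD, n = 3). The mean fell by 30.9%, and the log2 fold change was -0.50 ± 0.08 (limma, adjusted p = 0.0165). The values rest on 426 to 739 reads per library.

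*MRPL44* lies on chr2:223957404-223967714 of GRCh38, on the plus strand, with 4 exons in 1 annotated transcript. The 250 bases before its RefSeq start, chr2:223957213-223957462, are shown because it had the smallest p of all members. The capitals mark an NRF1 match 194 bases before the start and 2 matches to the SP1 letters on the opposite strand, 162 and 120 bases before it.
MRPL44: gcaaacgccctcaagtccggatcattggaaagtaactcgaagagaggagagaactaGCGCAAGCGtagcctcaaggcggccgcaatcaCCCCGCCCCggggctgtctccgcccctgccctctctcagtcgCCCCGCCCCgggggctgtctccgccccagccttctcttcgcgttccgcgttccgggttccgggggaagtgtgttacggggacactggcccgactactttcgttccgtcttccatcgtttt

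*MRPL30*, a core protein with a bacterial counterpart, was at 16.1, 15.6 and 16.7 FPKM in the NC columns in the same order. It was at 13.4, 11.4 and 11.4 FPKM in the siPrp19 columns, so that again no value overlapped, with siPrp19a the nearest to the controls. The mean fell by 25.1%, with a log2 fold change of -0.39 ± 0.08 (limma, adjusted p = 0.0327). Of its exonic bases, 19.5% were shared on the same strand with another protein-coding gene, ENSG00000241962, which had between 11 and 21 reads per library. It lies on chr2:99181079-99197626, on the plus strand. The 250 bases before its RefSeq start, chr2:99180934-99181183, are shown as those of the other member that fell, with an ETS match 145 bases and an NRF1 match 115 bases before the start in capitals, both on the opposite strand.
MRPL30: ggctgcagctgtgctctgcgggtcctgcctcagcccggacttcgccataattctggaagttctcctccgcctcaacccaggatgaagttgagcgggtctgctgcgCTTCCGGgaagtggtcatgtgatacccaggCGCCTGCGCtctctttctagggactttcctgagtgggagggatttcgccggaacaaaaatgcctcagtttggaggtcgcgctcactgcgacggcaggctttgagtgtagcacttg

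Both calls depended on which libraries were included. *MRPL44* passed without NCb, NCc or siPrp19a (limma, adjusted p between 0.0130 and 0.0478). It no longer passed without NCa, siPrp19b or siPrp19c (limma, adjusted p between 0.0631 and 0.0820). Its log2 fold changes lay between -0.55 (without NCb) and -0.42 (without NCc). *MRPL30* passed without siPrp19a (limma, adjusted p = 0.0192) and not when any other library was left out (adjusted p between 0.0546 and 0.140). Over all 13718 genes, 1089 passed with all 6 libraries. This became 264 without NCa, 335 without NCb, 270 without siPrp19b and 253 without siPrp19c. It became 1354 without NCc and 1033 without siPrp19a. Most of the lost calls thus came in fits where far fewer genes passed.

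**Figure D1:**
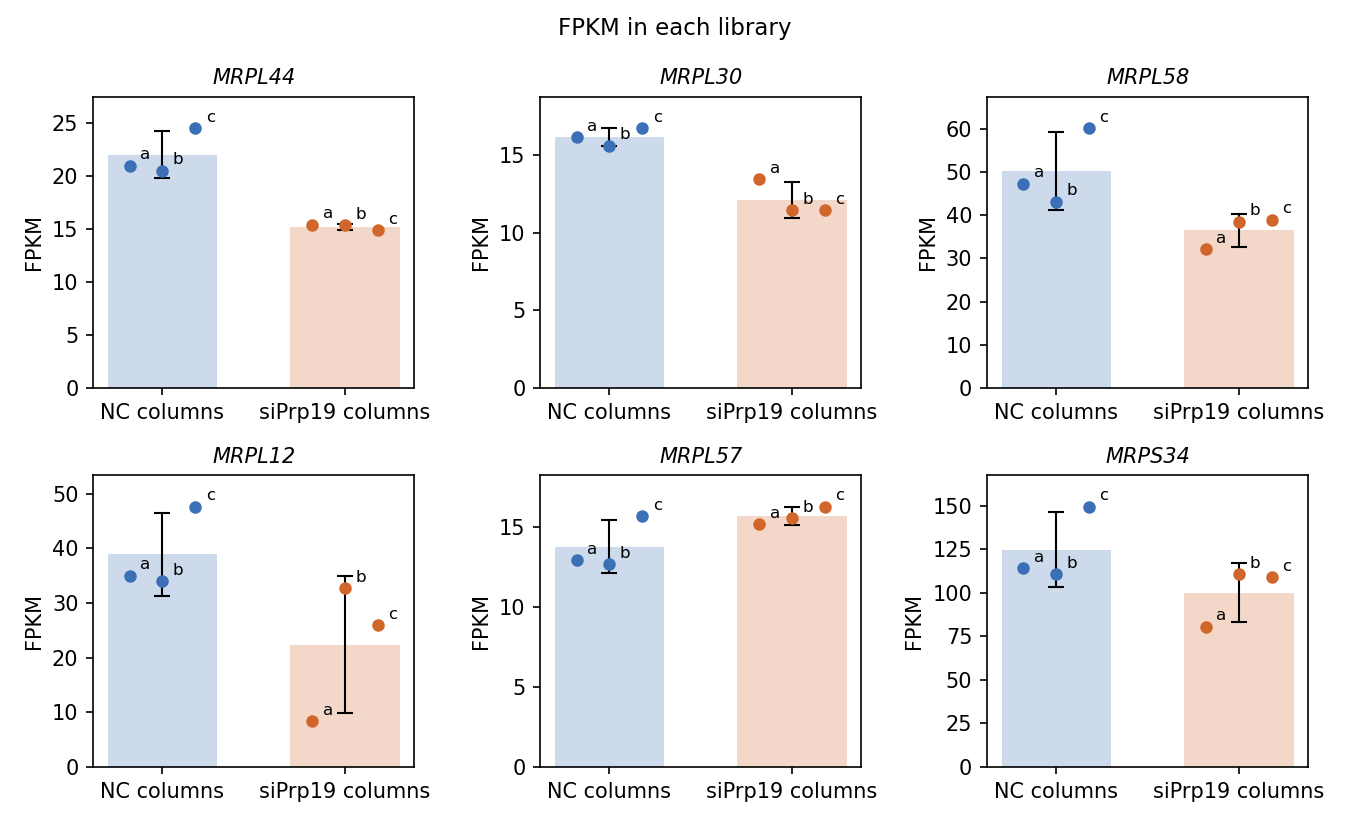
FPKM of 6 members in each library, with points lettered by column, bars at the mean of 3 libraries and error lines of 1 SD. The NC and siPrp19 points of *MRPL44*, *MRPL30*, *MRPL58* and *MRPL12* do not overlap. In *MRPL12* the siPrp19a library stands at 8.44 FPKM, far below the other 5.

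In the large subunit, the next members by p did not pass the test over all genes. *MRPL58*, a peptidyl-tRNA hydrolase that became part of the ribosome and releases stalled chains, was at 47.3, 43.1 and 60.2 FPKM in NC and at 32.1, 38.5 and 38.9 FPKM in siPrp19 columns. Its groups did not overlap, and its log2 fold change was -0.44 ± 0.14 (limma, adjusted p = 0.110). It passed once the libraries were corrected for GC and length (limma, adjusted p = 0.0415). That correction also raised the calls over all 13718 genes from 1089 to 1801.

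Among proteins with bacterial counterparts, *MRPL32*, which is matured by a mitochondrial protease before assembly, had a log2 fold change of -0.24 ± 0.08 (limma, adjusted p = 0.121). *MRPL13* was at -0.38 ± 0.13 (adjusted p = 0.123) and *MRPL9* at -0.24 ± 0.09 (adjusted p = 0.167), also from limma. The mitochondria-specific *MRPL48* and *MRPL39* were at -0.31 and -0.23 on the log2 scale, each with an adjusted p of 0.199 (limma). In all 5 the siPrp19 columns lay below the NC columns without overlap, as in 18.1% of all genes tested. The 5 were picked by smallest p, which favours groups without overlap.

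*MRPL51* and *MRPL46*, the highest and lowest of the tested large subunit genes, were at -0.38 ± 0.26 and -0.04 ± 0.12 (limma, adjusted p = 0.430 and 0.867). *MRPL51* was at 46.8 FPKM in siPrp19a, whereas siPrp19b and siPrp19c, at 88.0 and 88.6 FPKM, lay above NCa and NCb at 86.3 and 82.9 FPKM.

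*MRPL12*, named here after its values were seen, had the most negative fold change of all members without passing the test. Its protein forms the stalk of the large subunit that recruits translation factors. It was at 35.0, 34.0 and 47.7 FPKM in NC and at 8.44, 32.8 and 26.0 FPKM in siPrp19 columns, which rest on 570, 515, 843, 137, 556 and 561 reads. The log2 fold change was -0.94 ± 0.45 (limma, adjusted p = 0.260), and without the siPrp19a library it was -0.39 ± 0.18 (adjusted p = 0.259). Of its exonic bases, 68.2% were shared on the same strand with ENSG00000262660, a gene at 0 reads in all libraries, and how the counting treated them was not stated.

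In the small subunit no gene passed the test, against 7.94% of all genes. In 2 of 28 (7.14%), *MRPS23* and *MRPS25*, the siPrp19 columns lay wholly below the NC columns, against 18.1% of all genes. *MRPS23*, a mitochondria-specific protein, was at 19.8, 19.4 and 24.5 FPKM in NC and at 14.8, 18.4 and 19.1 FPKM in siPrp19 columns, with a log2 fold change of -0.27 ± 0.13 (limma, adjusted p = 0.254). *MRPS25*, likewise mitochondria-specific, was at -0.16 ± 0.08 (limma, adjusted p = 0.280).

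*MRPS34*, the most strongly expressed member, was at 114, 111 and 150 FPKM in NC and at 80.7, 111 and 109 FPKM in siPrp19 columns. Its groups overlapped, since NCb and siPrp19b were alike. Its log2 fold change was -0.32 ± 0.17 (limma, adjusted p = 0.307). It lies on chr16:1771890-1773155, on the minus strand, with 3 exons. The 250 bases before its RefSeq start, chr16:1773135-1773384, are printed as those of the highest member, with 3 ETS matches in capitals, all on the opposite strand and 71, 29 and 19 bases before the start.
MRPS34: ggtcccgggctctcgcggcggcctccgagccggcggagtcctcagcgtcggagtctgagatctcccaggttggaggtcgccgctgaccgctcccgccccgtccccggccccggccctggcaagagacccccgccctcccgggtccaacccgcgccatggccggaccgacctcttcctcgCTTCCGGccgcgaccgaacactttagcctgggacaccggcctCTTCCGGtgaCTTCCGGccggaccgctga

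The other small subunit genes by smallest p were *MRPS15*, *MRPS6*, *MRPS9*, *MRPS16* and *MRPS28*, all with bacterial counterparts, at log2 fold changes of -0.18, -0.20, 0.16, -0.15 and -0.26. Their adjusted p-values lay between 0.362 and 0.443 (limma), and the groups of all 5 overlapped. *MRPS17*, the lowest tested member of this subunit, was at 0.12 ± 0.10 (limma, adjusted p = 0.520). *MRPS30* and *MRPS18A*, whose proteins sit in the large subunit in spite of their names, were at -0.00032 and -0.08 on the log2 scale.

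Small differences of most members were negative on the deposited scale. The median log2 fold change was -0.11 over the 48 MRPL genes and -0.08 over the 28 MRPS genes, beside -0.02 over all genes tested. With quantile normalization the medians were -0.03 and 0.02, beside 0.01 over all genes, so the sign of the MRPS median depended on the scaling. As deposited, the fold change was below 0 in 37 MRPL (77.1%) and 19 MRPS genes (67.9%), beside 54.0% of all genes. The siPrp19 columns lay wholly below the NC columns in 14 of 76 members (18.4%), 12 MRPL and 2 MRPS, against 18.1% of all genes. They lay wholly above in 0 members, against 13.2% of all genes. By origin, the medians were -0.10 in the 29 large subunit genes with a bacterial counterpart and -0.13 in the 19 mitochondria-specific ones. In the small subunit they were -0.08 in 15 and -0.09 in 10 genes.

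**Figure D2:**
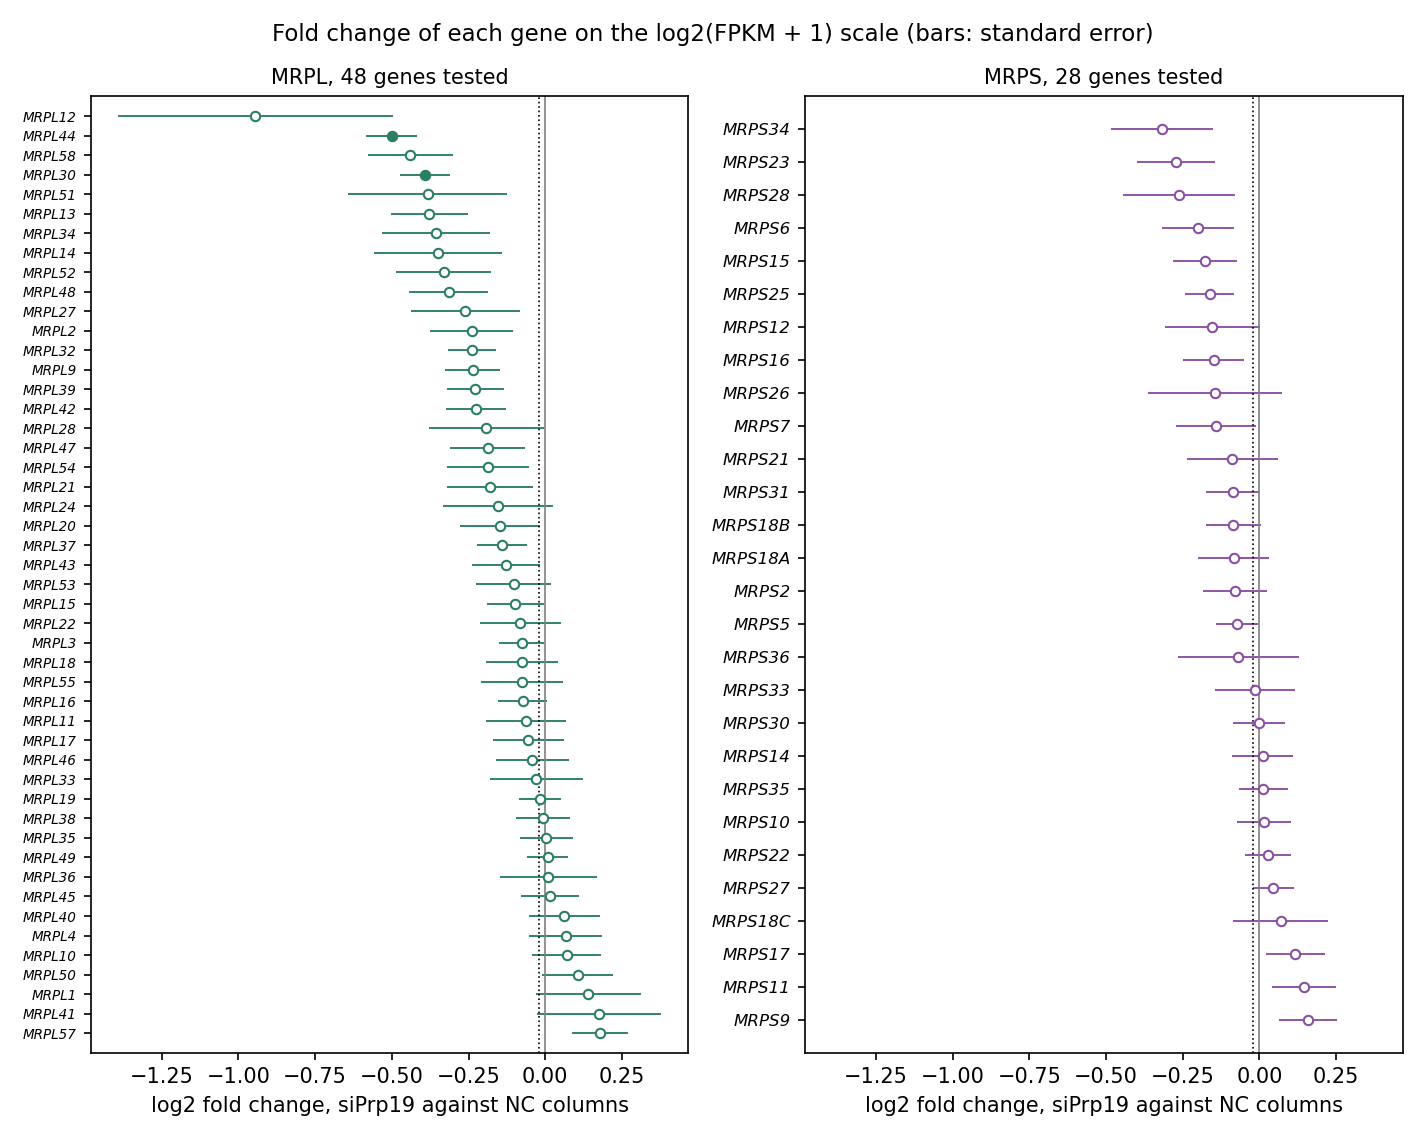
log2 fold change (x axis, log2(FPKM + 1) scale) of each tested MRPL and MRPS gene (y axis) between siPrp19 and NC columns, with standard errors as bars, filled points for an adjusted p under 0.05 and a dotted line at the median of all genes. With the values as deposited most points lie left of 0 (the MRPS median turns to 0.02 with quantile normalization), and *MRPL44* and *MRPL30* are the filled ones.

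Single libraries stood apart in the levels of the members. The NCc library had the highest value of all 6 for 57 of 76 members (75.0%), 39 MRPL and 18 MRPS, against 28.6% of all genes. The siPrp19a library had the lowest value for 31 members (40.8%), 19 MRPL and 12 MRPS, against 24.7% of all genes. It also had the highest value for 6 of 28 MRPS genes (21.4%) and 3 of 48 MRPL genes, against 21.4% of all genes. Relative to the mean of each gene over the libraries, the median member was at 0.25 on the log2 scale in NCc and at -0.10 in siPrp19a, and between -0.05 and -0.01 in the other 4. By subunit, the siPrp19a median was -0.12 for MRPL and 0.0030 for MRPS genes. The members together took 0.499% of the reads in NCc, 0.392% in siPrp19a and between 0.414% and 0.449% in the others. Without NCc, the fold change by column name was below 0 in 29 MRPL and 14 MRPS genes. Without siPrp19a it was below 0 in 34 and 22. With any other single library left out, it was below 0 in 36 to 40 MRPL and 17 to 22 MRPS genes. The part of single libraries in the medians was not tested.

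**Figure D3:**
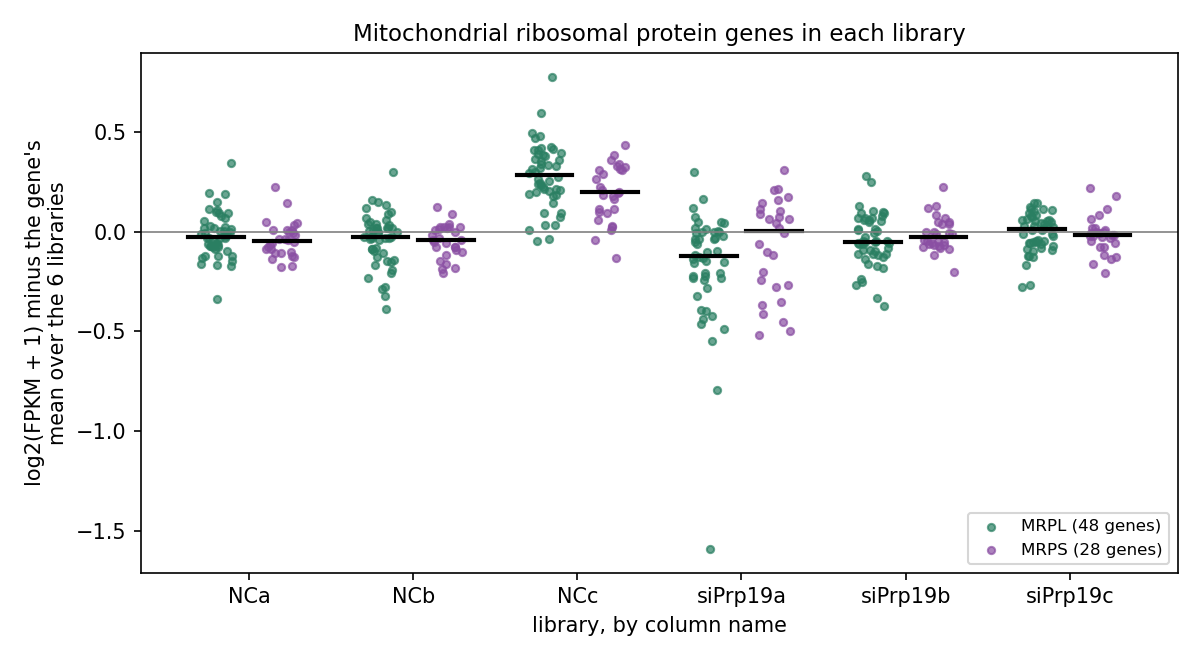
Each point is 1 of the 48 MRPL or 28 MRPS genes, plotted as its log2(FPKM + 1) in a library minus its mean over the 6 libraries (y axis), by library (x axis), with black lines at the medians. The NCc library stands above the rest, at medians of 0.28 and 0.20, and the siPrp19a library has the widest spread.

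Members varied least within the pairs NCa with NCb and siPrp19b with siPrp19c. Over the 76 genes, the SD of the log2 difference between 2 libraries was 0.107 for NCa and NCb and 0.111 for siPrp19b and siPrp19c. It was between 0.163 and 0.400 for the other pairs, up to 0.184 where NCa or NCb was set against siPrp19b or siPrp19c, and largest for NCc and siPrp19a. Between NCa and siPrp19b, 38 members were higher in one and 38 in the other.

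Cytosolic ribosomal protein genes, the closest group by function, shared the library pattern. Of 83 tested, 0 passed (limma, 2 at an unadjusted p under 0.05, and 0 by voom), their median was -0.18, 80 were highest in NCc and 55 lowest in siPrp19a. The 13 proteins encoded by mitochondrial DNA, the products of mitochondrial ribosomes, had a median of 0.18 with 0 past the threshold (limma, 0 at an unadjusted p under 0.05, and 0 by voom), and 12 of them were highest in siPrp19a. The highest subunit of cytochrome oxidase by FPKM, *MT-CO2*, was at 8907, 8876 and 10889 FPKM in NC and at 14264, 9337 and 9405 FPKM in siPrp19 columns.

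The difference of the NCc and siPrp19a libraries from the others varied with the base composition, length and level of the member. Across the 76 genes, siPrp19a minus the mean of the other libraries had a Pearson's r of -0.45 with the GC content of the exons and 0.37 with their log2 length. For NCc the values were 0.35 and -0.43. With the mean level, log2(FPKM + 1), r was -0.29 for siPrp19a and 0.41 for NCc. Over all genes tested, the values for GC content, length and level were -0.23, 0.13 and -0.13 in siPrp19a and 0.08, -0.12 and 0.27 in NCc. These are correlations across genes of the same libraries, which are not independent replicates, and the 3 properties were not separated from one another. The mean level includes the library whose difference is taken. NCc is also among the other libraries for siPrp19a, and the reverse. Part of the values with level, and of the opposite signs, can therefore come from the calculation. The members were short, with a median exonic length of 2502 bases against 4326 over all genes tested, and of median GC content (49.0% against 48.9%). In members of 60% GC and above the median difference was -0.22 in siPrp19a and 0.45 in NCc. In those under 45% it was 0.03 and 0.26.

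**Figure D4:**
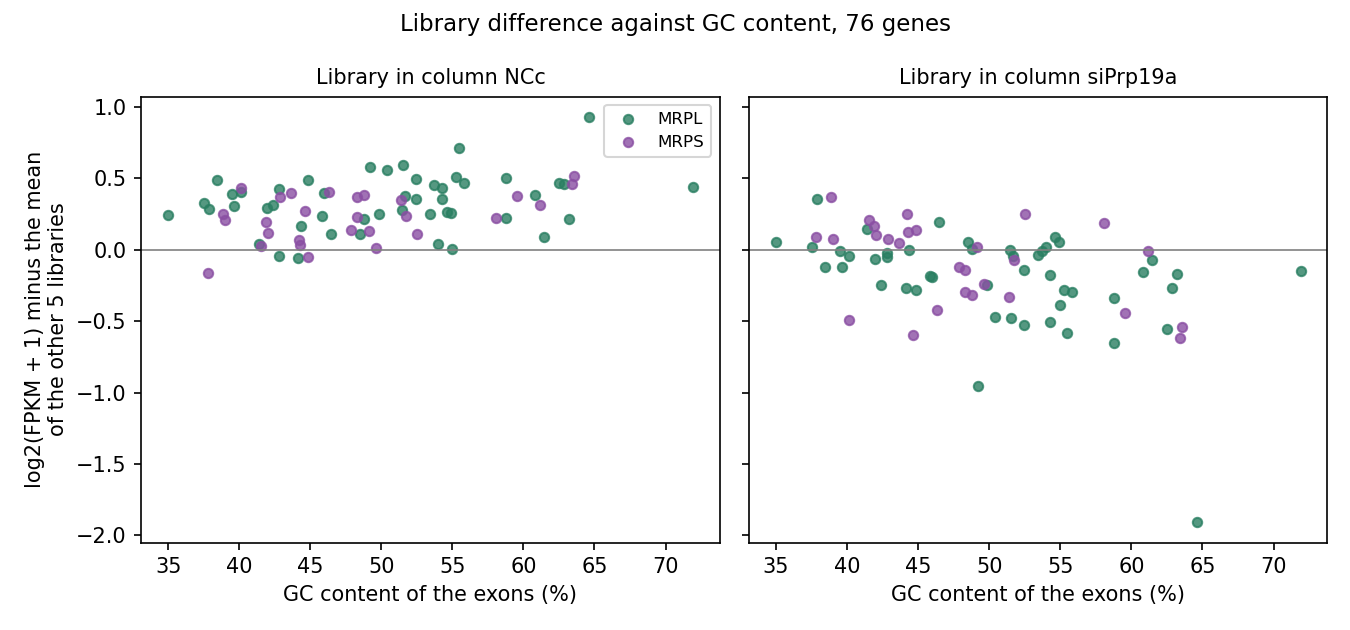
Difference of the NCc (left) and siPrp19a (right) library from the mean of the other 5, on the log2(FPKM + 1) scale (y axis), against the GC content of the exons in percent (x axis) for the 76 tested members. Points rise to the right in NCc (r = 0.35) and fall in siPrp19a (r = -0.45).

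Without NCc and siPrp19a, a comparison of NCa and NCb with siPrp19b and siPrp19c that was chosen after the data were seen, the members' medians lay near 0. The libraries left out held the highest NC and the lowest siPrp19 values for many members, and those kept were the closest pair of each group, so the shift towards 0 and the smaller error follow from the choice and are given as a description. The log2 fold changes of the members were below 0 in 21 of 48 MRPL and 13 of 28 MRPS genes, with medians of 0.02 and 0.0035. Of all genes, 3846 passed (28%), and 15 of the 76 members were among them, 13 MRPL and 2 MRPS. This comparison includes NCb and siPrp19b, whose labels and columns disagree.

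Since these libraries were chosen after the data were seen, the adjusted p-values here are descriptive and add no support to the calls above. *MRPL44* (-0.43 ± 0.04, adjusted p = 0.00360) and *MRPL30* (-0.44 ± 0.04, adjusted p = 0.00368) were below 0 by limma. Also past the threshold, *MRPL58*, *MRPL42*, *MRPL32* and *MRPL9* lay between -0.22 and -0.15. The others that passed were above 0. *MRPL41*, a mitochondria-specific protein of the large subunit, was at 0.51 ± 0.06 (limma, adjusted p = 0.00698). The higher of NCa and NCb was at 46.6 FPKM, and the lower of siPrp19b and siPrp19c at 61.8 FPKM. The 2 libraries left out were at 73.9 FPKM (NCc) and 52.4 FPKM (siPrp19a), the reverse order.

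*MRPL57* was at 0.29 ± 0.04 (limma, adjusted p = 0.0108). It was also the one member called as higher when NCc alone was left out (0.27 ± 0.06, limma, adjusted p = 0.0448, with 9.87% of all genes called). It was between 12.7 (NCb) and 15.7 FPKM (NCc) in NC and at 15.2, 15.6 and 16.3 FPKM in siPrp19 columns. *MRPL4*, *MRPL50*, *MRPL10*, *MRPL24* and *MRPL28* lay between 0.14 and 0.26 without NCc and siPrp19a. In the small subunit *MRPS36* was at 0.28 ± 0.05 (limma, adjusted p = 0.0189) and *MRPS21* at 0.16 ± 0.03 (adjusted p = 0.0212) in the same comparison. The product of *MRPS36* is now known as a part of the oxoglutarate dehydrogenase complex and no longer counted as a ribosomal protein. All members named in this comparison beyond *MRPL44*, *MRPL30*, *MRPL58*, *MRPL32* and *MRPL9* were named after their values were seen.

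**Figure D5:**
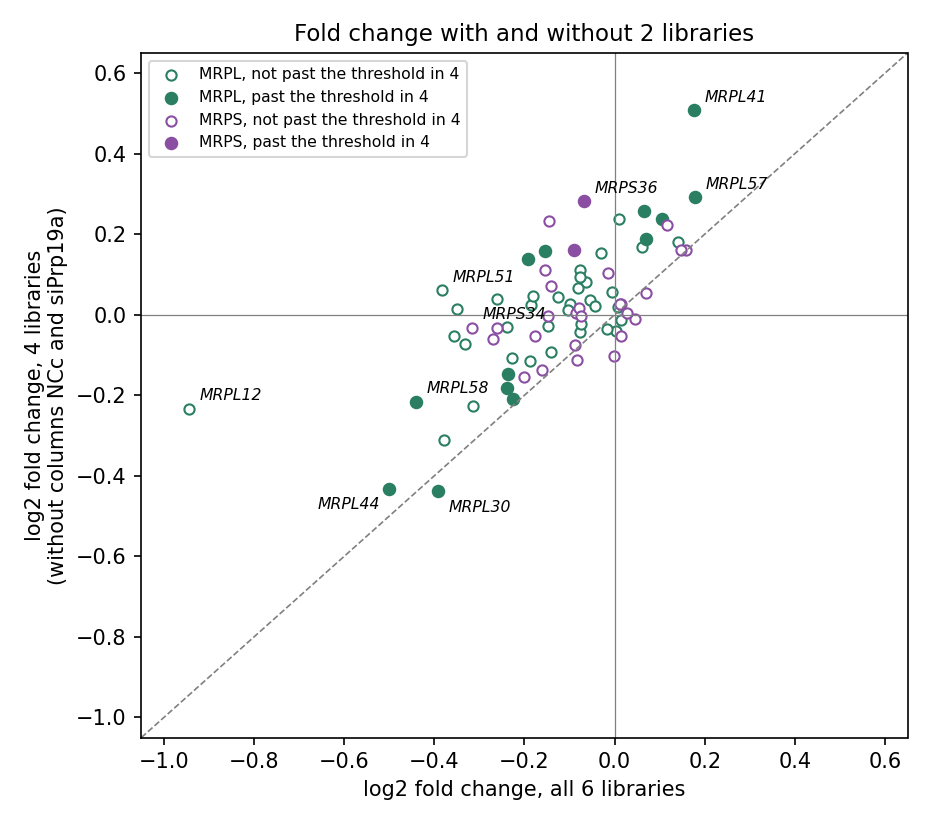
log2 fold change of the 76 members between siPrp19 and NC columns with all 6 libraries (x axis) and without NCc and siPrp19a (y axis), with a dashed line of equality. Filled points passed the test in the 4 libraries, and they lie on both sides of 0, whereas *MRPL12* moves from -0.94 to -0.23.

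In the 4 libraries whose column and label agree, 0 members passed by limma, against 0.0146% of all genes (2 genes). At an unadjusted p under 0.05 there were 4 MRPL and 1 MRPS genes, against 12.3% of all genes. With voom on recovered reads 0 members passed, against 2.08% of all genes (285 genes). The medians were -0.19 (MRPL) and -0.12 (MRPS), beside -0.02 over all genes, and both libraries with the pattern above are in this comparison. *MRPL44* was at -0.55 ± 0.13 (limma, adjusted p = 0.196) and *MRPL30* at -0.38 ± 0.13 (adjusted p = 0.341).

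As labelled, 0 members and 0% of all genes passed by limma, with 0 MRPL and 1 MRPS genes (*MRPS28*) at an unadjusted p under 0.05, against 1.39% of all genes. Voom called 0 members and 0% of all genes. *MRPL44* was at -0.24 ± 0.19 and *MRPL30* at -0.12 ± 0.17 on the log2 scale (limma, adjusted p = 1.00 for both). The medians were -0.11 (MRPL) and -0.07 (MRPS), beside -0.01 over all genes. The 3 comparisons share libraries and are not independent of one another.

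Genes that work with the mitochondrial ribosome were counted in the same way, beside 7.94% of all genes called in either direction and 5.37% called as lower. Of 17 translation factors, 1 fell and 0 rose (5.88%). This was *GFM2*, which helps to split the ribosome after translation, at 16.6, 17.5 and 16.5 FPKM in NC and 12.3, 10.6 and 10.7 FPKM in siPrp19 columns (-0.55 ± 0.08, limma, adjusted p = 0.00963). Of 27 assembly factors, 1 fell and 0 rose (3.70%). This was *RPUSD4*, a pseudouridine synthase acting on the large ribosomal RNA, at 6.19, 6.19 and 6.44 FPKM in NC and 3.89, 4.30 and 4.39 FPKM in siPrp19 columns (-0.49 ± 0.07, limma, adjusted p = 0.0108).

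Of 4 genes that express mitochondrial DNA, *TFAM*, which packages it and starts its transcription, fell by 0.31 on the log2 scale (± 0.06, limma, adjusted p = 0.0283), from 14.0, 13.2 and 13.3 FPKM to 10.5, 10.9 and 10.8 FPKM. The other three, *POLRMT*, *TFB2M* and *TEFM*, did not pass, at 0.22, 0.10 and 0.06. Of 19 tested mitochondrial aminoacyl-tRNA synthetases and related amidotransferase subunits 0 passed by limma or voom, with 4 at an unadjusted p under 0.05 and a median of -0.02. Neither did any of 5 mitochondrial ribosomal proteins with other names, among them *DAP3* at 0.04 and *AURKAIP1* at -0.20, by limma or voom, with 0 at an unadjusted p under 0.05. *GFM2*, *RPUSD4* and *TFAM* lost their calls when some single libraries were left out, *GFM2* and *RPUSD4* with adjusted p-values (limma) between 0.0505 and 0.0573 and *TFAM* between 0.104 and 0.136.

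The members lay on most chromosomes, and 1 pair of neighbours shared a start region. *MRPL46* and *MRPS11* lie head to head on chromosome 15, with 33 bases between them. *MRPL46* was at 1.73, 1.97 and 1.64 FPKM in NC and 1.35, 1.92 and 1.86 FPKM in siPrp19 columns. *MRPS11* was at 5.60, 5.32 and 6.67 FPKM in NC and 7.33, 5.92 and 6.52 FPKM in siPrp19 columns. The siPrp19a library thus held the lowest value of the one and the highest of the other, and neither differed between column groups beyond the spread (limma, adjusted p = 0.867 and 0.452).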

How the data were processed

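Poly-A or total RNA selection, strandedness and annotation were not given in the sources used here. The authors deposited 1 table per library with an FPKM value for each of 58735 Ensembl genes, and the submitters' processing notes name HISAT2 2.0.5, featureCounts 1.5.0-p3 and hg38. The study's methods state a shorter time after transfection than the labels' 72 h, and biological replicates. FPKM times the exonic length in GENCODE 29 was a whole multiple of 1 constant per library for 100% of values (within 0.01 reads), and whole reads were recovered in this way. Every value column was used.

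Genes with a mean of at least 1 FPKM were tested on log2(FPKM + 1), which understates changes of low genes, with limma 3.58.1 in R 4.3.3 (mean-variance trend, Benjamini-Hochberg adjustment over all 13718 genes, threshold 0.05). Lists and motifs were matched with Python 3.11.15, pandas 2.3.3 and numpy 2.4.6, and the fit was tested on simulated data. Coordinates are from GENCODE 29 (GRCh38), promoters from RefSeq. Antisense overlaps cannot be told apart without strand.

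The members and lists were chosen with earlier results of these data known. Named by rule were *PRPF19*, members past the threshold without overlap, then up to 8 per subunit by smallest p, the highest and lowest per subunit, members under the filter, and genes past the threshold in the lists of partner genes. Groups follow the file columns, the 4 agreeing libraries or the labels. Alternatives were a pseudocount of 0.1, no filter, quantile and median-ratio scaling, voom, correction for GC content and length, a replicate block, and leaving out libraries.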

Additional observations from a re-analysis of the deposited data

How the results depend on the processing

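By column name, 1089 genes passed, and 512 did with no filter on low values, 1801 after correction for GC content and length, and 3846 without NCc and siPrp19a. Single libraries left out gave between 253 and 1354. The 2 MRPL genes called became 1 with no filter and 1 with quantile normalization, 3 after correction for GC content and length, 13 without NCc and siPrp19a, and between 0 and 2 with single libraries left out. The 0 MRPS genes became 2 without NCc and siPrp19a. The MRPS median of -0.08 moved to 0.020 with quantile normalization, to 0.0035 without NCc and siPrp19a, and to between -0.13 and 0.0021 with single libraries left out, the latter without NCc. In the 4 agreeing libraries, 2 genes called became 0 with no filter, 285 with voom and 0 with the replicate block, and between 0 and 70 with single libraries left out, where MRPL genes called were between 0 and 1. There the MRPS median of -0.12 moved to -0.019 with quantile normalization and to between -0.23 and 0.021 with single libraries left out. As labelled, it was between -0.12 and 0.027. *MRPL30* was not called with no filter (limma, adjusted p = 0.0766) or quantile normalization (adjusted p = 0.0601), and *TFAM* not with quantile normalization, GC and length correction or the block (adjusted p between 0.0609 and 0.0670). *MRPL46* changed sign to 0.012 after GC and length correction, to 0.021 without NCc and siPrp19a, and lay between -0.10 and 0.057 with single libraries left out (above 0 without NCb or siPrp19a), and *MRPL51* changed sign to 0.062 without NCc and siPrp19a. Where fewer libraries entered a fit, fewer degrees of freedom remained, and the cause of the other shifts was not tested.

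With the column letter as a replicate block, 928 genes passed, with 2 MRPL and 0 MRPS genes. Deviations of same-lettered libraries correlated at 0.13 (a), -0.05 (b) and 0.20 (c), so the letters were not taken as pairs. As labelled the values were 0.39, -0.17 and 0.32.

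Of 658 values, 46 were the reported ones themselves. Of the others, 543 were classed as the same, 31 counts or medians as moved, and 5 as changed in sign. A further 27 lost a call and 6 gained one. The class of 5 does not hold every change of sign. By column name, the MRPS median also went from -0.081 to 0.0021 without NCc. Depth limits the lowest members most, since a tested member had between 65 and 3058 reads per library.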
